A study of Mus musculus with 16 samples.

Results

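The 10 genes described here encode ligands, antagonists, a protease and receptors of the BMP (bone morphogenetic protein) and TGF-beta (transforming growth factor beta) pathways, namely Tgfb1, Tgfb2, Tgfb3, Bmp4, Inhba, Grem1, Fst, Bmp1, Tgfbr1 and Tgfbr2. Their rows were taken by gene symbol, but the 10 genes were chosen with earlier results of these data known. Counts of them beside the share of all genes are therefore a description only. All 10 were found among the 43626 genes of the polyA read tables and the 24544 genes of the FPKM table. FPKM stands for fragments per kilobase of transcript, scaled to library size. Each of the 10 genes reached 1 FPKM in at least 1 group, as did 14969 genes in all.

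Ligands of this family are secreted as dimers and bind pairs of serine/threonine kinase receptors, which phosphorylate SMAD proteins that enter the nucleus. TGF-betas are stored in the matrix in a latent form, activins and BMPs are held in check by secreted binding proteins such as follistatin and gremlin, and BMP-1-type proteases mature collagens and cleave the BMP antagonist chordin. In the stroma around hematopoietic cells the family is known as a regulator of stem cell quiescence, matrix production and stromal cell identity.

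RNA came from AFT024 and BFC012, which are stromal lines derived from fetal liver of C57BL/6 mice at 14.5 dpc (days post coitum), and from exosomes, the small membrane vesicles that each line secreted. AFT024 is labelled as supportive of hematopoietic stem and progenitor cells and BFC012 as non-supportive, with no further treatment or allele in the labels. Each kind is 1 line, so a difference between the lines cannot be told apart from support. The 4 polyA groups, cells and exosomes of each line, have 2 samples each in the labels. Exosomal RNA of several extractions was pooled and split into technical replicates that the authors merged, so the tables hold 1 value per group, the spread between replicates is unknown, and p-values were not computed.

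Depth was 39385534 reads in AFT024 cells, 35874383 in BFC012 cells, 9038471 in AFT024 exosomes and 16344350 in BFC012 exosomes. Both lines carried the stromal genes Vim and Col1a1, at 2591 and 284 FPKM in AFT024 cells and at 1597 and 71.2 FPKM in BFC012 cells. The stromal marker Thy1 went against the label with 1 read in AFT024 cells and 0 in each of the other groups. The summed level of the listed hematopoietic markers was 0.125 to 0.272 FPKM over the 4 groups, with none of the 4 in the FPKM table at 1 FPKM. Listed endothelial markers summed to 0.314 to 0.753 FPKM and hepatocyte and hepatoblast markers to 0.0987 to 0.417 FPKM, also with none at 1 FPKM. Markers of some other cell types were present: the platelet gene Itga2b stood at 7.19 to 10.3 FPKM over the 4 groups and Ppbp at 6.17 FPKM in AFT024 cells, while Pf4 was at 0 to 0.274 FPKM. The macrophage gene Cd68 stood at 3.52 FPKM in cells of AFT024 and 1.72 FPKM in those of BFC012. The epithelial gene Cdh1 stood at 4.01 FPKM in BFC012 cells (756 reads) and 0.0352 FPKM in AFT024 cells (3 reads), with Epcam and Krt8 below 1 FPKM in every group. All 3 listed mesothelial markers (Msln, Upk3b and Wt1) reached 1 FPKM in BFC012 cells, where they summed to 169.7 FPKM, against 1 of 3 and a sum of 38.6 FPKM in AFT024 cells.

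Levels of genes are given in FPKM, which is per length. Groups are compared by read ratios, taken between whole reads that were scaled by the median of ratios over the 4 groups, with exact Clopper-Pearson 95% intervals in brackets. The intervals cover counting error only. Higher and lower below mean a read ratio of 2-fold or more either way with at least 20 reads over both groups. A read in an exosome group was worth less FPKM than a read in cells: the median gene had 4.65 and 3.45 RPM (library-scaled reads) for each FPKM in AFT024 and BFC012 exosomes, against 2.28 in each kind of cell. FPKM therefore sets exosomes lower against cells than scaled reads do. For exosomes against cells the median gene stood at -1.12 (AFT024) and -0.80 (BFC012) on the log2(FPKM + 1) scale.

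**Figure D1:**
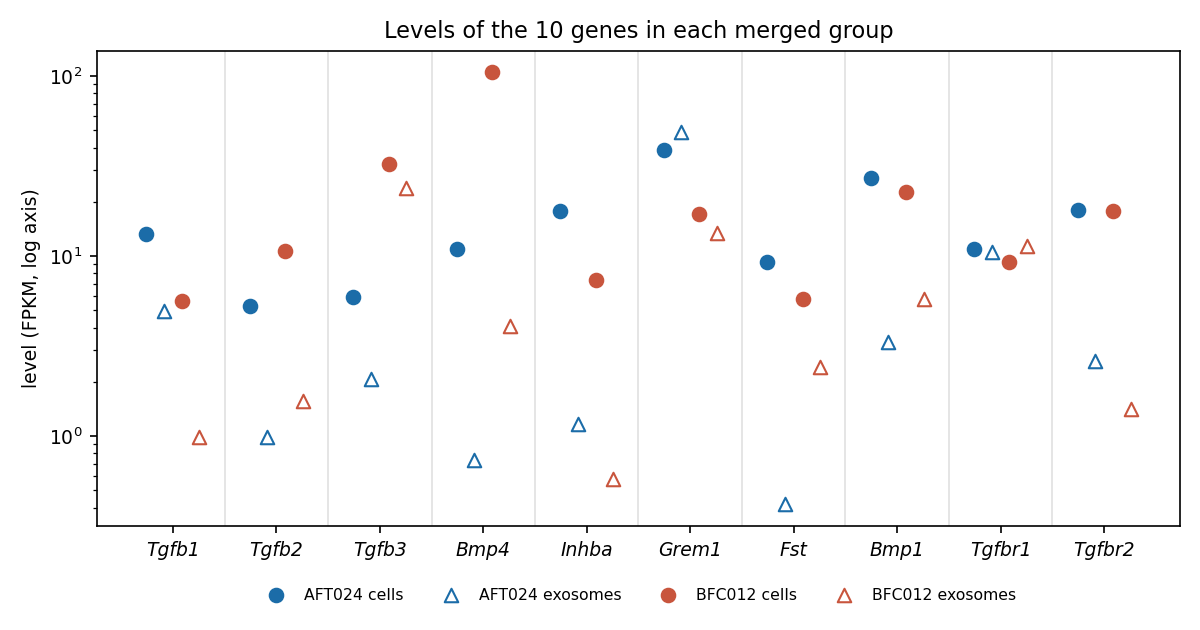
Level of each gene in FPKM (log axis) in the 4 groups, 1 merged value per point, with filled circles for cells, open triangles for exosomes, blue for AFT024 and red for BFC012. Bmp4 in BFC012 cells, at 104.9 FPKM, is the highest point, and Fst in AFT024 exosomes, at 0.417 FPKM, is the lowest.

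The cells of the lines differed in the RNA levels of the ligand genes, each of which was found in both. BFC012 cells had 9.58-fold more Bmp4 and 5.37-fold more Tgfb3 than AFT024 cells, and 2.02-fold more Tgfb2, whereas AFT024 cells had more Tgfb1 (2.62-fold), Inhba (2.46-fold) and the BMP antagonist Grem1 (2.30-fold). The receptors Tgfbr1 and Tgfbr2, the protease Bmp1 and the activin-binding Fst differed by less than 2-fold. Of the 10 genes 3 were higher and 3 were lower in AFT024 cells, where 11.9% of the 14203 genes tested were higher and 9.46% were lower. In such bulk RNA fewer cells that transcribe a gene and less RNA per cell cannot be told apart.

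Tgfb1 encodes TGF-beta 1, an inhibitor of cycling in early hematopoietic cells and an inducer of matrix genes (mm10 chromosome 7, 25687002 to 25705077, plus strand). It stood at 13.3 FPKM (892 reads) in AFT024 cells, 5.59 FPKM (317 reads) in BFC012 cells, 4.96 FPKM (135 reads) in AFT024 exosomes and 0.992 FPKM (58 reads) in BFC012 exosomes. AFT024 was the higher line in both materials, by a read ratio of 2.62 (2.30 to 2.99) in cells and 4.07 (2.97 to 5.63) in exosomes. By reads, AFT024 exosomes and their cells did not differ beyond counting error, at 0.883 (0.731 to 1.06), and BFC012 exosomes stood at 0.569 (0.422 to 0.754) of their cells. Both values depended on scaling: with total reads they were -0.60 and -1.32 (log2), the latter past 2-fold, and in FPKM as deposited -1.26 and -1.73 (log2), both past 2-fold.

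Tgfb2 encodes TGF-beta 2, which acts in heart and epithelial-mesenchymal development (chromosome 1, 186622792 to 186705989, minus strand). It stood at 5.31 FPKM (1113 reads) in AFT024 cells, 10.6 FPKM (2092 reads) in BFC012 cells, 0.982 FPKM (64 reads) in AFT024 exosomes and 1.56 FPKM (191 reads) in BFC012 exosomes. The BFC012 groups were the higher ones, by 2.02-fold (1.88 to 2.17) in cells, an interval that spans 2-fold, and by 1.71-fold (1.28 to 2.30) in exosomes. Both exosome groups were below their cells, at read ratios of 0.335 (0.257 to 0.432) in AFT024 and 0.284 (0.243 to 0.329) in BFC012. On the FPKM scale relative to the median gene the AFT024 value was -0.55 (log2), short of 2-fold.

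Tgfb3 encodes TGF-beta 3, known for its part in palate fusion and wound repair (chromosome 12, 86056744 to 86079041, minus strand). It stood at 5.94 FPKM (916 reads) in AFT024 cells, 32.4 FPKM (4575 reads) in BFC012 cells, 2.06 FPKM (139 reads) in AFT024 exosomes and 23.8 FPKM (2161 reads) in BFC012 exosomes. Both BFC012 groups lay above both AFT024 groups, by 5.37-fold (5.0 to 5.77) in cells and 8.90-fold (7.49 to 10.6) in exosomes. Against its own cells, Tgfb3 in exosomes was at a read ratio of 0.885 (0.735 to 1.06) in AFT024, not beyond counting error, and at 1.47 (1.39 to 1.55) in BFC012. With total reads these ratios were -0.60 and 0.05 (log2), and in FPKM as deposited -1.18 and -0.43 (log2), so that the direction in BFC012 depended on the measure.

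Bmp4 encodes BMP-4, a ligand of mesoderm and blood development that signals through SMAD1, SMAD5 and SMAD8 (chromosome 14, 46383520 to 46390669, minus strand). It stood at 10.9 FPKM (793 reads) in AFT024 cells, 104.9 FPKM (7074 reads) in BFC012 cells, 0.738 FPKM (21 reads) in AFT024 exosomes and 4.11 FPKM (179 reads) in BFC012 exosomes. BFC012 cells were far above the other groups. The level there exceeded 91.4% of the genes that reached 1 FPKM in at least 1 group, against 49.0% in AFT024 cells. BFC012 was 9.58-fold (8.90 to 10.3) above AFT024 in cells and 4.88-fold (3.10 to 8.07) in exosomes. Bmp4 had the lowest exosome-against-cell read ratio of the 10 genes in BFC012, at 0.0786 (0.0674 to 0.0912), and stood at 0.154 (0.0951 to 0.238) in AFT024.

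Inhba encodes the activin A subunit, an inducer of SMAD2 and SMAD3 signalling (chromosome 13, 16011851 to 16027211, plus strand). It stood at 17.8 FPKM (1179 reads) in AFT024 cells, 7.35 FPKM (446 reads) in BFC012 cells, 1.17 FPKM (34 reads) in AFT024 exosomes and 0.580 FPKM (21 reads) in BFC012 exosomes. The AFT024 groups were the higher of each pair, by 2.46-fold (2.20 to 2.75) in cells and 2.83-fold (1.60 to 5.13) in exosomes, the latter on few reads and with an interval that spans 2-fold. In FPKM as deposited the difference between exosomes was 0.46 (log2), short of 2-fold. Exosomes were below cells in both lines, at 0.168 (0.116 to 0.236) in AFT024 and 0.146 (0.0897 to 0.226) in BFC012.

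Grem1 encodes gremlin 1, which binds BMP-2, BMP-4 and BMP-7 and keeps them from their receptors (chromosome 2, 113746164 to 113758646, minus strand). It stood at 39.1 FPKM (7434 reads) in AFT024 cells, 17.2 FPKM (3005 reads) in BFC012 cells, 49.1 FPKM (4119 reads) in AFT024 exosomes and 13.4 FPKM (1494 reads) in BFC012 exosomes. Both AFT024 groups lay above both BFC012 groups in FPKM. In AFT024 exosomes Grem1 exceeded 92.0% of the genes that reached 1 FPKM in at least 1 group. The lines differed 2.30-fold (2.21 to 2.40) in cells and 4.82-fold (4.54 to 5.12) in exosomes. Against its cells, Grem1 in AFT024 exosomes was at a read ratio of 3.23 (3.11 to 3.36), the highest of the 10 genes, but at 0.32 (log2) in FPKM as deposited, which is short of 2-fold. In BFC012 the read ratio was 1.54 (1.45 to 1.64), and the value in FPKM as deposited was -0.33 (log2), on the other side of 0.

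Fst encodes follistatin, which binds and neutralises activins (chromosome 13, 114452262 to 114458730, minus strand). It stood at 9.23 FPKM (963 reads) in AFT024 cells, 5.75 FPKM (555 reads) in BFC012 cells, 0.417 FPKM (18 reads) in AFT024 exosomes and 2.41 FPKM (149 reads) in BFC012 exosomes. The order of the lines turned around between materials, with AFT024 at 1.62 times (1.45 to 1.80) that of BFC012 in cells and BFC012 4.74-fold (2.90 to 8.21) above AFT024 in exosomes. By scaled reads Fst was 9.17-fold (5.77 to 15.5) lower in AFT024 exosomes than in their cells, on 18 reads. In BFC012 the ratio was 0.834 (0.691 to 1.0).

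Bmp1 encodes the procollagen C-proteinase BMP-1, which is not a ligand of the family despite its name (chromosome 14, 70474557 to 70520260, minus strand). It stood at 27.1 FPKM (4705 reads) in AFT024 cells, 22.7 FPKM (3616 reads) in BFC012 cells, 3.33 FPKM (253 reads) in AFT024 exosomes and 5.77 FPKM (589 reads) in BFC012 exosomes. Cells of both lines were above both exosome groups and differed from each other by a read ratio of only 1.21 (1.16 to 1.27). Exosomes stood at 0.314 (0.275 to 0.356) of their cells in AFT024 and at 0.506 (0.463 to 0.552) in BFC012. The BFC012 value lies just inside 2-fold and passes it with scaling to total reads, at -1.48 (log2).

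Tgfbr1 encodes the type I receptor kinase of TGF-beta (chromosome 4, 47353222 to 47414931, plus strand). It stood at 11 FPKM (2957 reads) in AFT024 cells, 9.22 FPKM (2275 reads) in BFC012 cells, 10.5 FPKM (1233 reads) in AFT024 exosomes and 11.4 FPKM (1801 reads) in BFC012 exosomes. No other of the 10 genes was as even in FPKM over the 4 groups. By reads it was higher in exosomes than in cells in both lines, at 2.43 (2.27 to 2.60) in AFT024 and 2.46 (2.31 to 2.62) in BFC012. These ratios depended on scaling: with total reads they were 0.86 and 0.80 (log2), below 2-fold, and in FPKM as deposited -0.066 and 0.28 (log2).

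Tgfbr2 encodes the type II receptor, which binds TGF-beta first and then activates the type I chain (chromosome 9, 116087698 to 116175363, minus strand). It stood at 18 FPKM (3947 reads) in AFT024 cells, 17.9 FPKM (3621 reads) in BFC012 cells, 2.62 FPKM (253 reads) in AFT024 exosomes and 1.42 FPKM (184 reads) in BFC012 exosomes. The cells did not differ beyond counting error, at a ratio of 1.01 (0.970 to 1.06), and both exosome groups were far below them. They stood at 0.374 (0.328 to 0.425) of their cells in AFT024 and at 0.158 (0.135 to 0.183) in BFC012, so AFT024 exosomes held 2.40-fold (1.98 to 2.92) more than BFC012 exosomes by reads. In FPKM as deposited this difference was 0.58 (log2), short of 2-fold.

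The library kit does not mark strand, so reads of a gene and of an antisense gene over the same exons cannot be told apart. Among annotated genes that share exon bases with Tgfb2, Tgfb3 or Bmp4 and were found in the read tables, none had more than 4 reads in a group. An antisense gene to Fst and a further overlapping gene of Tgfb3 were not matched in the read tables.

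**Figure D2:**
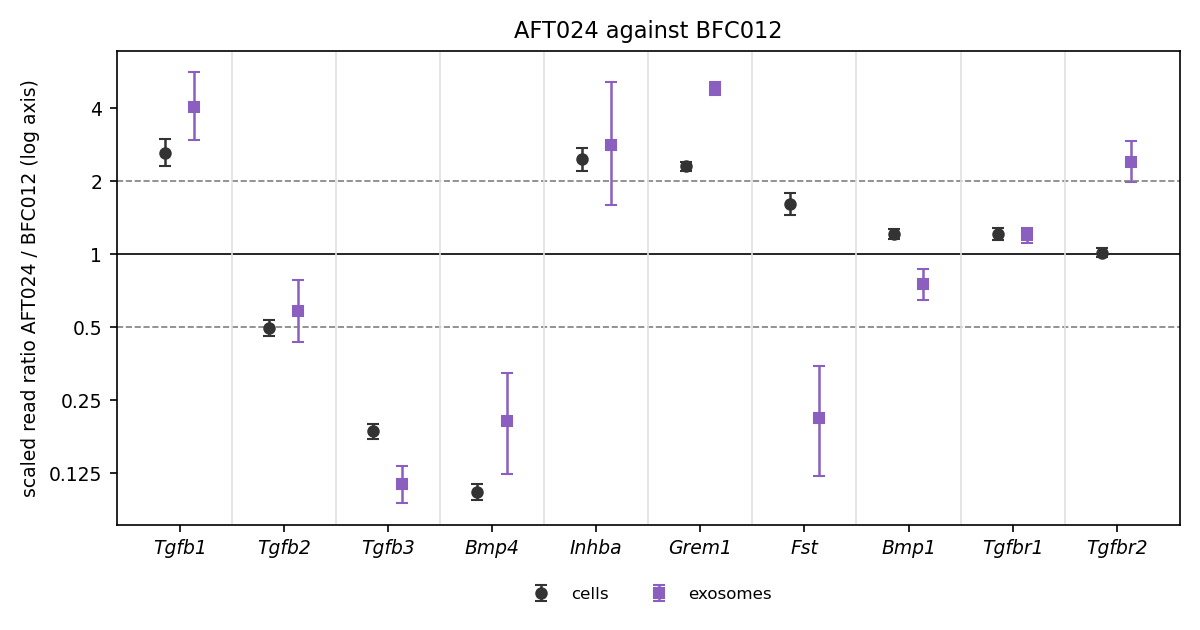
Read ratio of AFT024 over BFC012 for each gene (log axis) in cells (circles) and exosomes (squares), with 95% counting intervals as bars and 2-fold as dashed lines. Tgfb1, Inhba and Grem1 lie above 2 and Tgfb3 and Bmp4 below 0.5 in both materials, while Fst lies above 1 in cells and below 1 in exosomes.

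Start-site regions are shown for the 5 genes that differed by 2-fold or more between the cells and have an entry in the RefSeq promoter table (GRCm38.p6, 250 bases before to 50 after the start site, on the gene's own strand). They are printed because they hold the sequence next to the start of the genes that set the lines apart. The table has an entry for 7 of the 10 genes and none for Tgfb3, Fst or Bmp1. Capitals mark exact matches on either strand to 7 motifs: the SMAD box CAGAC, the GC-rich SMAD element GGCGCC, the AP-1 site TGANTCA, the TATA box TATAAA, the CCAAT box CCAAT, the GC box GGGCGG and the E-box CACGTG. The genes higher in AFT024 cells come first.
Tgfb1, chr7:25686752-25687051, plus strand: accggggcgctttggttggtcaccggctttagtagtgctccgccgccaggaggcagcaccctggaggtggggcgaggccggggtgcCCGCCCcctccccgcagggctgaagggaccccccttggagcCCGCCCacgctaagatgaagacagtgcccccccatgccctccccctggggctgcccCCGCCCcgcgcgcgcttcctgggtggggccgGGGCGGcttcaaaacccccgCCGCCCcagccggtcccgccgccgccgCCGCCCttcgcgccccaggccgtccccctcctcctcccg
Inhba, chr13:16011601-16011900, plus strand: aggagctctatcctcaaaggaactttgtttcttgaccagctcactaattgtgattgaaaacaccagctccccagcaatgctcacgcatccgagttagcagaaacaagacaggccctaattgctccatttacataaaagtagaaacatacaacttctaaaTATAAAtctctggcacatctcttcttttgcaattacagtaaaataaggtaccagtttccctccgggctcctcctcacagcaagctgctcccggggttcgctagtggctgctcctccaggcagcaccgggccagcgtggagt
Grem1, chr2:113758599-113758898, minus strand: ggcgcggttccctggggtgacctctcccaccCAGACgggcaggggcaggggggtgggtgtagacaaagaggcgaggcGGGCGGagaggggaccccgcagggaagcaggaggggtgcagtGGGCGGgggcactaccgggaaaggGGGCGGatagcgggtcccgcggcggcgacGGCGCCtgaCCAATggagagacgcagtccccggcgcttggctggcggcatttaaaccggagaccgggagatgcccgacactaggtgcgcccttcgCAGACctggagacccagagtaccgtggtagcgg
Bmp4, chr14:46390620-46390919, minus strand: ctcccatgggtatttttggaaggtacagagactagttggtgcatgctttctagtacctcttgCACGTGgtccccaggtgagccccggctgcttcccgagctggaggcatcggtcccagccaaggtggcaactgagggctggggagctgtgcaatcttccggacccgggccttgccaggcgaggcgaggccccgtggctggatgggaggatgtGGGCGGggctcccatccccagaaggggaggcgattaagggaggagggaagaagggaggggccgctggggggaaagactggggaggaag
Tgfb2, chr1:186705940-186706239, minus strand: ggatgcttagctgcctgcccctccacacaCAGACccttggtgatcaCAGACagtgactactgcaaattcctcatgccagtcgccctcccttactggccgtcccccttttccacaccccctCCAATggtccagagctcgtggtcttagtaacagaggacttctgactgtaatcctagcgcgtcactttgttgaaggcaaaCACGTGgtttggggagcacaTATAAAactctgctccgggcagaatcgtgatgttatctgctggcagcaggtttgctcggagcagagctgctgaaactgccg

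Base composition set these regions apart: 77.0% of the Tgfb1 window was G or C, 70.7% of that of Grem1, 64.0% of that of Bmp4, 54.3% of that of Tgfb2 and 47.7% of that of Inhba, against a median of 52.7% over 32851 promoters. Tgfb1 held 6 GC boxes and none of the other motifs. Grem1 held 3 GC boxes, a GC-rich SMAD element that 11.9% of promoters hold, a CCAAT box and SMAD boxes at -219 and 18 from the start site. Tgfb2 held SMAD boxes at -221 and -204, a TATA box at -31, a CCAAT box and an E-box. Bmp4 held a GC box and an E-box, and Inhba a TATA box at -91.

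The SMAD box occurs in 49.6% of all promoters of this length, and 4 of the 7 genes with an entry held one, the others being Tgfbr2 and the second start site of Tgfbr1. The shares of all promoters were 35.7% for the GC box, 37.4% for the CCAAT box, 13.6% for the TATA box, 7.15% for the E-box and 7.81% for the AP-1 site, which none of these genes held. The matches are letters in a window and not shown binding sites. None of the 7 motifs was held by all of Tgfb1, Inhba and Grem1, though Tgfb1, Grem1 and Bmp4 each held a GC box. Bmp4 and Tgfb2 both held an E-box. Tgfb2 also shared the SMAD box and the CCAAT box with Grem1 and the TATA box with Inhba.

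The lines differed in the makeup of the 3 TGF-beta ligand genes. Tgfb3 made up 66.7% of their summed level of 48.6 FPKM in BFC012 cells and 90.3% of the sum of 26.3 FPKM in BFC012 exosomes. In AFT024 Tgfb1 made up 54.2% of a sum of 24.6 FPKM in cells and 62.0% of 8.01 FPKM in exosomes, with Tgfb3 at 24.2% and 25.7%. Tgfb2 took 21.6% in AFT024 cells and 21.8% in BFC012 cells, and 12.3% and 5.91% in the exosomes. With reads per base of annotated exon in place of FPKM, an alternative chosen after seeing the data, Tgfb3 led in all groups, at 42.3% in AFT024 cells, 52.1% in AFT024 exosomes, 76.1% in BFC012 cells and 93.5% in BFC012 exosomes. The higher share of Tgfb3 in BFC012 was thus found by both measures, and which ligand led in AFT024 depended on the measure of length.

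**Figure D3:**
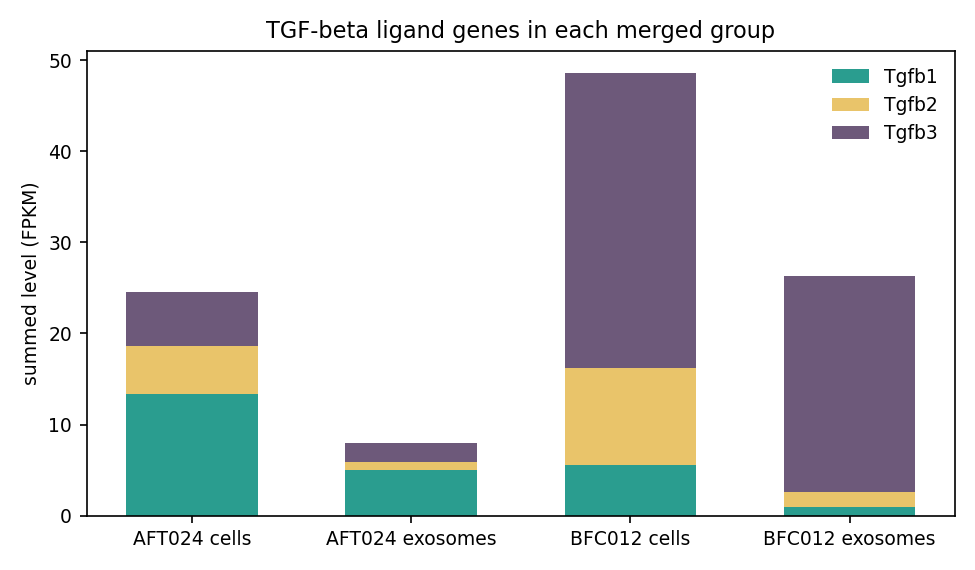
Level in FPKM of Tgfb1, Tgfb2 and Tgfb3, stacked, in each of the 4 groups with 1 merged value each. The sum is highest in BFC012 cells at 48.6 FPKM, where Tgfb3 fills 66.7% of the bar.

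The level of the antagonist Grem1 against that of its ligand Bmp4 turned around between the lines. In AFT024 cells Grem1 stood at 3.58 times the FPKM of Bmp4 (counting interval 3.32 to 3.85), and in BFC012 cells Bmp4 stood at 6.11 times that of Grem1. In exosomes Grem1 was above Bmp4 in both lines, by 66.5 times (43.5 to 107.6) in AFT024 and 3.27 times (2.80 to 3.84) in BFC012. With reads per exon base these 4 ratios of Grem1 to Bmp4 were 5.08, 0.230, 106.3 and 4.52 in the same order, on the same sides of 1.

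The activin-binding Fst stood at 0.517 times the FPKM of Inhba in AFT024 cells, 0.783 times in BFC012 cells, 0.358 times in AFT024 exosomes and 4.15 times in BFC012 exosomes. Fst was above Inhba in FPKM only in the BFC012 exosomes, where Inhba had 21 reads. With reads per exon base the ratio was 1.14 in AFT024 cells, 1.73 in BFC012 cells, 0.737 in AFT024 exosomes and 9.88 in BFC012 exosomes, so the order in cells depended on the measure of length.

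The receptors changed places between cells and exosomes. Tgfbr1 stood at 0.612 times the FPKM of Tgfbr2 in AFT024 cells and 0.516 times in BFC012 cells, but at 4.0 times (3.49 to 4.59) in AFT024 exosomes and 8.02 times (6.89 to 9.38) in BFC012 exosomes. With reads per exon base the values were 0.939, 0.787, 6.11 and 12.3 in that order, again below 1 in cells and above 1 in exosomes. These ratios within a group do not depend on how the groups are scaled.

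Against the cells that released them, exosomes held less RNA of most of these genes in AFT024. There 2 of 10 genes were higher (Grem1 and Tgfbr1), 6 were lower (Bmp4, Inhba, Fst, Bmp1, Tgfb2 and Tgfbr2) and 2 lay within 2-fold (Tgfb1 and Tgfb3), where 21.2% of the 13383 genes tested were higher and 28.7% were lower. The median log2 read ratio was -1.50 over the 10 genes and -0.22 over all genes tested. In BFC012 1 of 10 was higher (Tgfbr1), 4 were lower (Bmp4, Inhba, Tgfb2 and Tgfbr2) and 5 lay within 2-fold, where 23.4% of 13328 genes were higher and 26.9% were lower. The median was -0.90 over the 10 genes and -0.10 over all.

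The same 5 genes thus passed 2-fold in the same direction in both lines: Tgfbr1 above its cells, and Bmp4, Inhba, Tgfb2 and Tgfbr2 below them. The share of all genes that did so in both lines was not counted, so this overlap is not shown to be particular to the members. Of the 5 genes, Tgfbr1 lost 2-fold with scaling to total reads in both lines, and Tgfb2 lost it on the FPKM scale relative to the median gene in AFT024. Bmp4, Inhba and Tgfbr2 passed 2-fold under each scaling and pseudocount tried in both lines.

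**Figure D4:**
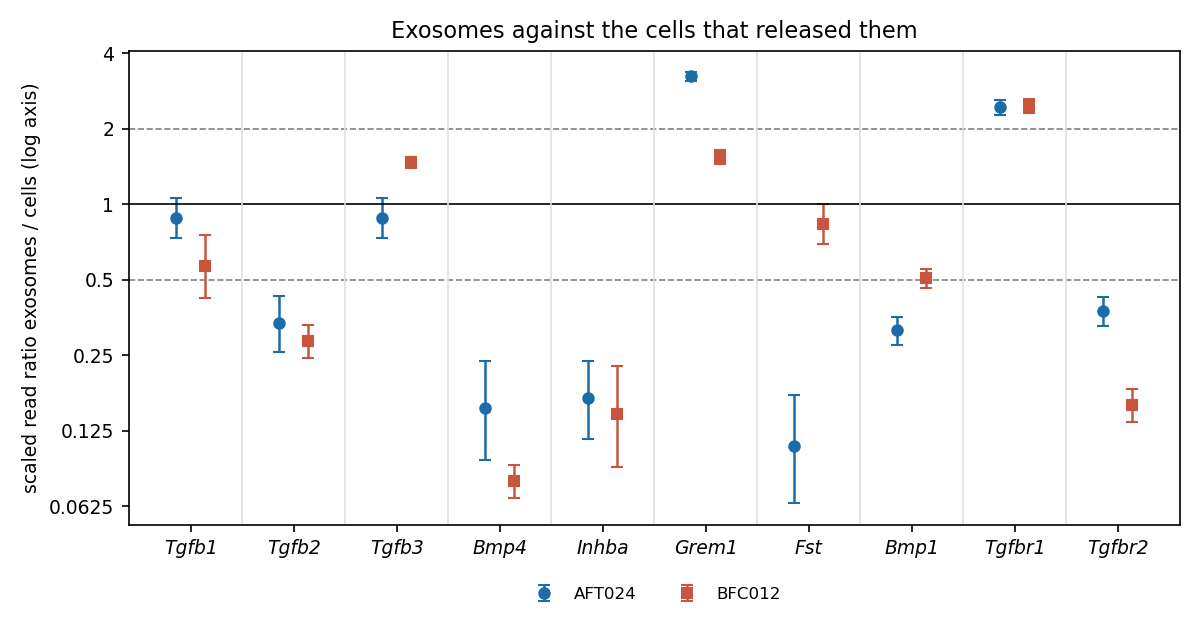
Read ratio of exosomes over cells for each gene (log axis) in AFT024 (circles) and BFC012 (squares), with 95% counting intervals as bars and 2-fold as dashed lines. Grem1 in AFT024 lies highest at 3.23 and Bmp4 in BFC012 lowest at 0.0786, and the intervals of the lines lie far apart for Fst.

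The exosome-against-cell ratio differed between the lines by more than 2-fold for 3 of the 10 genes, where 9.93% of 12381 genes differed that far towards AFT024 and 10.7% towards BFC012. The ratio of Fst was 7.65-fold (4.64 to 12.6) higher in BFC012. The ratio of Tgfbr2 was 2.37-fold (1.95 to 2.88) higher in AFT024 and that of Grem1 2.09-fold (1.95 to 2.25) higher in AFT024, both with intervals that span 2-fold. For Bmp4 it was 1.96-fold (1.24 to 3.11) and for Tgfb1 1.55-fold (1.11 to 2.17) higher in AFT024, and for Tgfb3 1.66-fold (1.38 to 2.0) and Bmp1 1.61-fold (1.38 to 1.88) higher in BFC012. The intervals of Tgfb2, Inhba and Tgfbr1 included 1, with Tgfbr1 at 0.989 (0.903 to 1.08).

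Between the exosomes of the lines 4 of 10 genes were higher in AFT024 (Grem1, Tgfb1, Inhba and Tgfbr2) and 3 were lower (Tgfb3, Bmp4 and Fst), where 14.1% of 12358 genes were higher and 15.1% were lower. The median log2 read ratio was -0.08 over the 10 genes and over all genes tested. Grem1, Tgfb1, Inhba, Tgfb3 and Bmp4 thus passed 2-fold in the same direction in exosomes as in cells. The share of all genes that did so in both materials was not counted. The intervals of Inhba and Tgfbr2 span 2-fold, and both fell short of 2-fold in FPKM plus 1. The comparisons share groups with each other, so their values are not independent of one another.

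Among 104 other genes of the pathways, listed by role, 58 reached 1 FPKM in a group and 13 had 0 reads throughout. Between the cells 23 of the 72 with enough reads were higher in AFT024 and 8 were lower, where 11.9% and 9.46% of all genes tested were. In exosomes against cells the AFT024 list had 12 higher and 37 lower genes of 69, beside 21.2% and 28.7% of all genes. The BFC012 list had 13 higher and 28 lower of 60, beside 23.4% and 26.9%. Median log2 read ratios over the list were 0.37, -1.07 and -0.81, against -0.01, -0.22 and -0.10 over all genes tested, and 0.38, -1.05 and -0.81 with genes at 0 reads in a group set at a floor of 3 reads there. Between exosomes 8 of 57 were higher in AFT024 and 15 lower, beside 14.1% and 15.1% of all genes, with a median of -0.20, or -0.16 at the floor, against -0.08 over all.

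Of the genes that the pathway is known to switch on, 7 of 12 were higher and 0 were lower in AFT024 cells, the largest share of higher genes among the 8 roles, where 11.9% of all genes were higher and 9.46% lower. Tgfbi, a TGF-beta-induced matrix protein gene, had 3890 reads (32.1 FPKM) as against 4 in the cells of AFT024 and BFC012, a ratio of 905 (353 to 3324). Id3, which BMP signalling induces, and the matricellular genes Ctgf and Cyr61 stayed within 2-fold, at 1.29, 0.712 and 1.28. Of those higher in AFT024 cells, Hey1 (36 against 9 reads) and Msx2 (41 against 0 reads) stayed below 1 FPKM in every group. Between the exosomes of the lines 1 of 9 target genes was higher in AFT024 and 3 were lower, beside 14.1% and 15.1% of all genes. In exosomes 11 of 12 target genes were lower than in cells in AFT024 and 8 of 10 in BFC012, beside 28.7% and 26.9% of all genes.

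Genes for storing and activating latent TGF-beta differed sharply for a few members. Lrrc32, which encodes the cell-surface anchor GARP of latent TGF-beta, had 5153 reads in AFT024 cells (29.4 FPKM) and 710 in AFT024 exosomes, against 1 and 2 reads in BFC012 cells and exosomes. Ltbp2, a matrix protein gene of the latent TGF-beta binding protein family, had 4233 reads in cells of AFT024 and 11 in those of BFC012. Ltbp4 went the other way, at 5.03 FPKM in AFT024 cells and 13.9 FPKM in BFC012 cells. Thbs1, the gene of the TGF-beta activator thrombospondin 1, stood at 238 and 453 FPKM, a ratio of 0.531 (0.526 to 0.536). In this group 8 of 10 genes were lower in exosomes than in cells in AFT024, beside 28.7% of all genes, and 4 of 10 in BFC012, beside 26.9%.

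Of the other extracellular antagonists 6 of 12 were higher and 3 lower in AFT024 cells, beside 11.9% and 9.46% of all genes. Nog, the noggin gene, had 33 reads in cells of AFT024 against 0 in those of BFC012, at least 10.2-fold higher on a floor of 3 reads. Fstl1, a follistatin-like gene, was at 317 and 128 FPKM, and Fstl3, the gene of an activin-binding follistatin relative, at 4.18 and 1.40 FPKM. Dcn, the gene of the TGF-beta-binding proteoglycan decorin, was lower in AFT024 cells, at 4.18 against 46.1 FPKM.

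Few other ligand genes had RNA at 1 FPKM, 3 of 28, and 10 had 0 reads. Gdf11, a growth and differentiation factor gene, was far above its cells in both kinds of exosome, at 40.5 and 29.5 FPKM against 5.74 and 4.34 FPKM, with read ratios of 18.2 (17 to 19.5) in AFT024 and 13.6 (12.5 to 14.7) in BFC012. Gdf15, a stress-induced ligand gene, had 166 reads in cells of AFT024 and 0 in those of BFC012, at least 51.5-fold higher on that floor.

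Among other receptors 9 of the 12 measured lay within 2-fold between the cells, as did 11175 of all 14203 genes tested. Eng, the gene of the co-receptor endoglin, was at a read ratio of 0.0580 (0.0470 to 0.0709) in AFT024 against BFC012 cells, and is listed at 0 FPKM in AFT024 cells although it had 101 reads there. Bmpr2, the type II BMP receptor gene, was lower in exosomes than in cells, at 0.363 (0.325 to 0.403) and 0.212 (0.188 to 0.239), as was Acvr1, a type I receptor gene, at 0.208 (0.162 to 0.264) and 0.274 (0.228 to 0.327). Bmpr1a, another type I receptor gene, stayed within 2-fold at 0.890 and 0.715.

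Of the intracellular genes in exosomes against cells, 2 of 6 transducers were higher in AFT024 and 2 lower, and 1 of 8 inhibitors was higher and 1 lower, beside 21.2% and 28.7% of all genes. In BFC012 2 of 6 transducers were higher and 1 lower, and 3 of 9 inhibitors were higher and 1 lower, beside 23.4% and 26.9%. Smad3, the gene of a TGF-beta and activin signal transducer, was at read ratios of 6.77 (6.46 to 7.10) and 8.16 (7.77 to 8.57) in exosomes against cells, and Smad5, which transduces BMP signals, at 2.64 and 3.59. Smad4, the gene of their common partner, was at 0.382 and 0.482. Smurf1, a ubiquitin ligase gene that limits the pathway, was at 4.58 and 5.54. Smad6, the gene of a BMP-pathway inhibitor, was at 0.0759 (0.0469 to 0.116) in AFT024 and 0.668 (0.586 to 0.759) in BFC012.

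For the genes that Bmp1 is known to work with, the procollagen C-proteinase enhancer genes Pcolce and Pcolce2 and the lysyl oxidase gene Lox, exosomes were lower than cells in both lines. The read ratios were 0.294 and 0.367 for Pcolce, 0.224 and 0.355 for Pcolce2, and 0.0821 and 0.183 for Lox, in AFT024 and BFC012. Bmp1 itself was at 0.314 and 0.506.

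**Figure D5:**
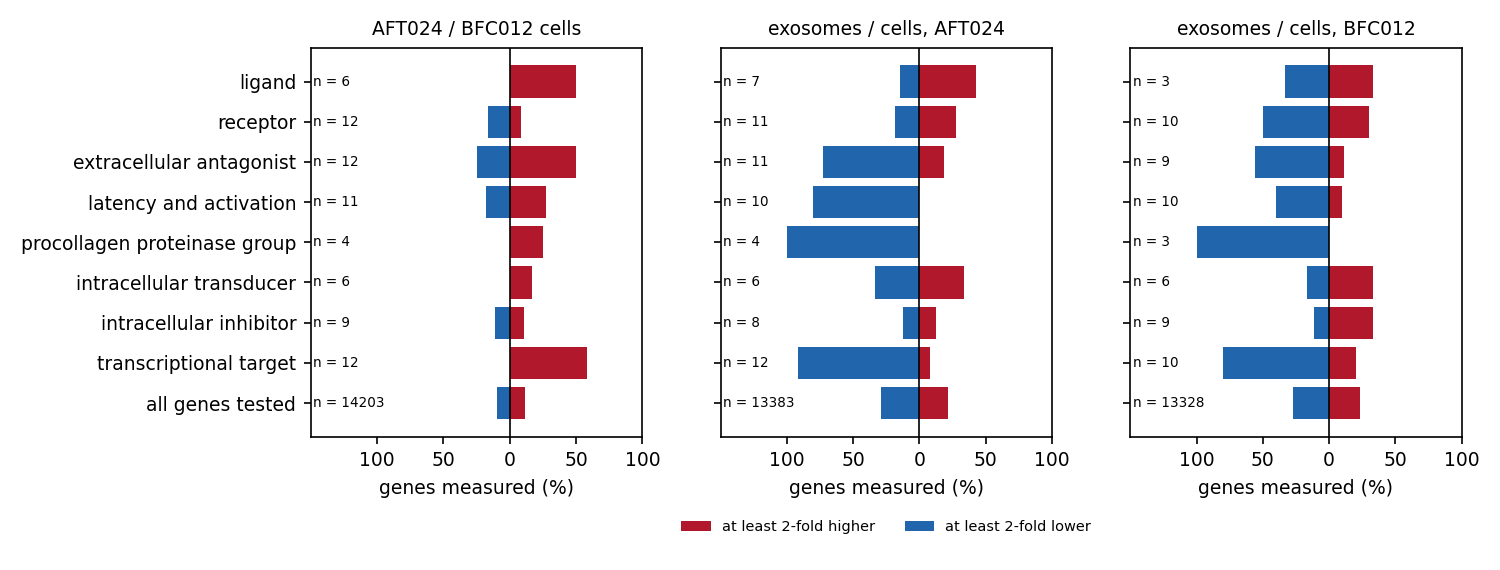
Share of the measured genes of each role that were at least 2-fold higher (red, right) or lower (blue, left) for AFT024 against BFC012 cells and for exosomes against cells in each line, with the number measured as n and all genes tested in the bottom row. Of the target genes, 7 of 12 are higher in AFT024 cells and 11 of 12 are lower in AFT024 exosomes than in their cells.

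The genes with the profile most like that of each member were found by the distance between centred log2 scaled read profiles over the 4 groups, among 11415 genes with at least 100 reads in a group. With 4 points such a likeness is a description only. The nearest genes were Bid, Syt11 and Lgals1 for Tgfb1, Mtap, Prkg2 and Steap2 for Tgfb2, Psrc1, Ptpn13 and Aldh7a1 for Tgfb3, and Ncam1, Pla2g4a and Arsk for Inhba. They were Chic1, Sox9 and Asic1 for Grem1, Unc5b, Adamts2 and Gm11460 for Fst, Ccdc80, Slc29a1 and Dis3 for Bmp1, Bdp1, Rabep1 and Kiz for Tgfbr1, and 2610021A01Rik, Fam3a and Gm19503 for Tgfbr2. Bmp4 had no close neighbour, with Atp1b1 at a distance of 0.52 (log2), Olfml2b at 0.72 and Itm2a at 0.77, whereas Bdp1 lay 0.043 from Tgfbr1 and Ccdc80 0.043 from Bmp1.

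Sox9, a chondrogenic transcription factor gene, followed Grem1 with 627 reads in AFT024 cells, 220 in BFC012 cells, 383 in AFT024 exosomes and 133 in BFC012 exosomes, at a distance of 0.25. Unc5b, a netrin receptor gene, followed Fst with 18791, 12776, 362 and 3001 reads in that order, at a distance of 0.19. Like Fst, it had more scaled reads in AFT024 among the cells and in BFC012 among the exosomes.

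Markers of mesothelium moved with Bmp4 and Tgfb3 between the lines. Upk3b stood at 138.9 FPKM in BFC012 cells and 0.0482 FPKM in AFT024 cells, and Wt1 at 13.9 and 0 FPKM, while Msln was higher in AFT024 cells, at 38.5 against 17 FPKM. Over the 4 groups the 3 markers summed to 13.1 FPKM in AFT024 exosomes, 25.8 in BFC012 exosomes, 38.6 in AFT024 cells and 169.7 in cells of BFC012. Of the 3 epithelial markers only Cdh1 moved with Bmp4 and Tgfb3, with 756 and 103 reads in BFC012 cells and exosomes against 3 and 6 in those of AFT024. Krt8 and Epcam went the other way on few reads. Krt8 had 34 and 32 reads in AFT024 cells and exosomes against 21 and 8 in those of BFC012, and Epcam 4 and 1 against 0 and 0. The 3 markers summed to 4.31 FPKM in BFC012 cells, mostly from Cdh1, and to 0.518 to 1.06 FPKM in the other groups. In cells the summed stromal markers moved with Grem1, Tgfb1 and Inhba, at 4644 FPKM in AFT024 and 2299 FPKM in BFC012. Vim (2591 and 1597 FPKM) and S100a4 (1671 and 603 FPKM) gave most of these sums. Col1a2 stood at 6.91 and 0.0716 FPKM, but Pdgfra at 7.99 and 6.92 FPKM. In exosomes Pdgfra (7.11 and 16.7 FPKM), Col1a1 (3.85 and 5.92) and Pdgfrb (3.01 and 3.40) were higher in BFC012. Vim, S100a4, Col1a2 and Col3a1 were higher in AFT024 exosomes in FPKM. Their part in the differences was not tested.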

How the data were processed

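PolyA RNA was analysed and the small RNA samples were not used here. The deposited FPKM table was computed by the authors. Build mm10 and the tools TopHat, Bowtie and Cufflinks are named in the submitters' processing notes, with no role. The deposited pairwise tables hold a signal that is reads divided by a size factor per pair, found from the values, which use decimal commas. Which tool counted the reads is not given in the sources used here. Dividing a column by the worth of 1 read gave whole reads. All values (100%) were whole within 0.01 reads, and reads of a group were equal in all tables that list a gene. The 3 rows without a mouse gene ID were left out. Columns of per-group values left unused numbered 0.

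Reads were scaled by median-of-ratios factors over the 4 groups (Python 3.11.15, numpy 2.4.6, pandas 2.3.3, scipy 1.17.1), and the code was tested on simulated data. Intervals are exact Clopper-Pearson at 95% from the split of reads, and ratios of ratios have Wald 95% intervals. A fold of 2 with at least 20 reads was counted, and a fold against 0 reads used a floor of 3 reads in that group, though genes at 0 reads in a group were counted as past 2-fold also where this floor gave less (Chrdl1, 1.83-fold). Coordinates are those deposited, with 1 added to the start, since 80.4% of 22264 genes have a GENCODE M21 start 1 above it. Alternatives were total reads, the trimmed mean of M-values (own implementation, 30% and 5% trims), other gene sets for the factors, FPKM with pseudocounts of 1 and 0.1, and other read minimums.

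The members, the pathway list and the marker lists were chosen with earlier results of these data known. All members are named. Of the other roles the rule named genes at 1 FPKM, at most the 4 with most reads and the 3 of widest range with at least 100 reads in a group. Not all of these are reported here, and Nog was chosen after its values were seen.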

Additional observations from a re-analysis of the deposited data

Results flagged for a closer look

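For 3 genes the values of the compared pairs lay on opposite sides of 1, and the share of all genes that did so was not counted. Each of the 3 results rests on 1 merged value per group, so the difference was not tested against replicates. Fst had an AFT024-against-BFC012 read ratio of 1.62 in cells and 0.211 in exosomes, with intervals on opposite sides of 1. Bmp1 had a ratio of 1.21 in cells and 0.751 in exosomes in the same comparison, also with intervals on opposite sides. Tgfb3 had an exosome-against-cell read ratio of 0.885 in AFT024 and 1.47 in BFC012, and the AFT024 interval includes 1. In FPKM as deposited both lines lay below their cells, at -1.18 and -0.43 (log2), and with total reads the BFC012 value was 0.05 (log2), so the opposite sides depend on the scaling.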

How the results depend on the processing

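No paired analysis was possible because the merged columns carry no replicate numbers, and leaving out a replicate was not possible for the same reason. Of 40 member ratios, 36 stayed on their side of 2-fold with scaling to total reads, 39 with the trimmed mean of M-values, 40 with factors set without ribosomal protein genes and the 100 genes with most reads, 30 in FPKM plus 1 as deposited, 35 in FPKM plus 1 relative to the median gene and 37 with 0.1 added. The sign of Tgfbr1 for AFT024 exosomes against cells reversed, to -0.066 (log2), in FPKM as deposited, which lowers the median gene by 1.12. In that setting 36 of 40 ratios kept their sign, and the other changes, all of ratios within 2-fold, were Tgfb3 (-0.43) and Grem1 (-0.33) for BFC012 exosomes against cells and Tgfbr1 (-0.11) between exosomes. Signs were kept by 39 with total reads (Tgfbr2 between cells, -0.010), 39 with 0.1 added (Tgfb1 in AFT024 exosomes against cells, 0.060) and 40 in each of the others. With total reads the genes higher in exosomes numbered 1 in AFT024 and 0 in BFC012, and in FPKM as deposited 0 and 0. Between exosomes 2 of the 10 genes were higher in AFT024 in FPKM as deposited, 2 in FPKM relative to the median gene and 2 with the whole interval past 2-fold.

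Among the other pathway genes, those higher in AFT024 exosomes than cells numbered 7 with total reads and 2 in FPKM as deposited, and in BFC012 4 in FPKM as deposited and 25 with no filter on reads. Those lower in BFC012 exosomes numbered 17 relative to the median gene in FPKM. Between cells 14, 15 and 15 were higher in AFT024 and 3, 3 and 5 lower in FPKM plus 1 as deposited, then relative to the median gene with 1 and with 0.1 added. Lower ones there numbered 17 with no filter and 4 with at least 100 reads. Between exosomes 3 were higher in FPKM as deposited and 3 when set against the median gene, 17 with no filter and 4 with whole intervals past 2-fold, and 25 were lower with no filter. The causes were not tested. Depth limits Fst, Bmp4 and Inhba in AFT024 exosomes, with 18, 21 and 34 reads, and Inhba in BFC012 exosomes, with 21 reads.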
